A study of Mus musculus with 8 samples.

Results

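Transcripts of 10 Krüppel-like factor (KLF) genes were followed through the cells of the mouse iris: *Klf2*, *Klf3*, *Klf4*, *Klf5*, *Klf6*, *Klf7*, *Klf10*, *Klf12*, *Klf13* and *Klf15*. The genes were chosen by symbol, with earlier results of these data known. All 10 symbols were found, and they are 10 of the 22873 genes in the deposited tables. KLF proteins are transcription factors that bind GC-rich and CACCC-containing DNA through zinc fingers at their C-terminal end and that activate or repress promoters through the rest of the protein. KLF2 and KLF4 are best known in endothelium, where they maintain a quiescent state under flow. KLF4 and KLF5 are also known for roles in the change of smooth muscle between contractile and proliferative states, and several members are induced rapidly by stretch, growth factors or hormones.

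Nuclei were purified from irises of 6 to 8-week-old female albino wild-type mice, with 5 or 6 irises in a library, and profiled by single nucleus RNA-seq. The untreated group had 3 libraries, the constricted group had 3 (5% pilocarpine, a muscarinic agonist) and the dilated group had 2 (5% phenylephrine, an alpha-adrenergic agonist, with 1% cyclopentolate, a muscarinic antagonist). Constricted and dilated mice had eye drops hourly, and their tissue was taken after 6.5 hours. Untreated mice had no treatment, and their lighting is not given in the sources used here. No group had drops without a drug, so the effect of dilation below includes any effect of drops and handling. Dilated mice stayed in the dark and constricted mice in the light, so drug and lighting cannot be told apart.

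The 8 libraries held 34357 nuclei and 109565284 unique molecular identifiers (UMIs, 1 per captured transcript), from 5189437 to 25136427 in a library. Each nucleus carries 1 of 10 cell types assigned by the authors: dilator muscle, the radial smooth muscle that opens the pupil, with 11606 nuclei; iris pigment epithelium (iris PE), 8704; stroma 2, 6763; stroma 1, 2315; ciliary body epithelium (CBE), 1295; non-epithelial ciliary body (CB), 1291; the pupil-closing muscle in 2 classes, sphincter 1 with 1011 and sphincter 2 with 712; leukocytes, 387; and endothelial cells, 273. Summed markers were highest in their own type in every condition for sphincter 1, both stromata, leukocytes and endothelial cells. The 5 dilator markers were at 5062 to 5865 CPM in untreated dilator muscle, overlapping with sphincter 2 (4279 to 5369), and in dilated libraries they were lower in dilator muscle (2432 to 2645) than in sphincter 2 (4303 to 4904). The 4 sphincter 2 markers were highest in sphincter 1, and the 4 markers of iris PE and CBE were as high in stroma 1 (2332 to 3257 CPM in untreated libraries) as in iris PE (2351 to 3007). Of the CB markers, *Col9a2* and *Bmp4* summed to 43.9 to 75.2 CPM in untreated nuclei labelled CB and to 381 to 734 in CBE, so that these 2 markers go against the label, and CB stands here for the authors' class only. A total of 195 barcodes out of 34152 occurred in more than 1 library, and untreated replicate 1 shared 63 with dilated replicate 1, of which 59 carried the same cell type. Without every nucleus of a shared barcode, the number of KLF differences called was the same in each comparison (6, 0 and 4), as was the number of differences between cell types in the effect of dilation (18). Dilated replicate 1 also had the highest median share of mitochondrial transcripts, 0.0728% against 0.0216% to 0.0438% in the other libraries.

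Levels are UMIs of a gene per 1000000 UMIs of all nuclei of a cell type in a library (CPM). A difference was called where the log2 fold change passed 0.6 in size with an adjusted p below 0.05 (edgeR quasi-likelihood test, Benjamini-Hochberg over all genes of the cell type). Means are given with the SD over libraries, each a pool of irises, and fold changes with the SE.

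Promoter sequences are shown for the 3 genes of the list that were called higher in dilated dilator muscle and have a RefSeq promoter window here (*Klf4*, *Klf6*, *Klf13*), and for *Klf2*, the other endothelial factor, which was not called there. Each runs 5′ to 3′ on the strand of the gene from 250 bases before to 50 bases after the RefSeq start site (GRCm38.p6). The *Klf4* window is chr4:55532426-55532725 (minus strand), the *Klf6* window chr13:5861239-5861538 (plus), the *Klf13* window chr7:63938866-63939165 (minus) and the *Klf2* window chr8:72318812-72319111 (plus). Capitals mark, on either strand, the GC box GGGCGG, the cyclic AMP response half-site TGACG, the E-box CACGTG, the CCAAT box and the MEF2 site.
Klf4: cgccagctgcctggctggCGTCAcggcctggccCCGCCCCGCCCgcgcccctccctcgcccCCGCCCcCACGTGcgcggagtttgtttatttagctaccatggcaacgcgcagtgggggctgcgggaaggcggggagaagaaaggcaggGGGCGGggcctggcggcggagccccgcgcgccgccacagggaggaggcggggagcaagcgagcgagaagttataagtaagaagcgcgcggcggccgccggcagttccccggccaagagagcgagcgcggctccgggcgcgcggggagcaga
Klf6: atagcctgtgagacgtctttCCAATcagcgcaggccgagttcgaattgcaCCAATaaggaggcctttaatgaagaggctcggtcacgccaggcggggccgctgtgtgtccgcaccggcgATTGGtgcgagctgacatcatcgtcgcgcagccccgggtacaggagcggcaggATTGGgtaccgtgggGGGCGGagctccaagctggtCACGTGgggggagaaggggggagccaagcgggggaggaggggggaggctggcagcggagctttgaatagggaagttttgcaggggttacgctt
Klf13: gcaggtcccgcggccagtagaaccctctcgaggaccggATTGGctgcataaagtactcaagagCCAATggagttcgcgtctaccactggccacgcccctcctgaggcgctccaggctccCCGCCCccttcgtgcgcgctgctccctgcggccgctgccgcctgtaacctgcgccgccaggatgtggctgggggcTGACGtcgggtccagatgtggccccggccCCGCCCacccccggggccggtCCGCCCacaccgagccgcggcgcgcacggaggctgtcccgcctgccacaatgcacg
Klf2: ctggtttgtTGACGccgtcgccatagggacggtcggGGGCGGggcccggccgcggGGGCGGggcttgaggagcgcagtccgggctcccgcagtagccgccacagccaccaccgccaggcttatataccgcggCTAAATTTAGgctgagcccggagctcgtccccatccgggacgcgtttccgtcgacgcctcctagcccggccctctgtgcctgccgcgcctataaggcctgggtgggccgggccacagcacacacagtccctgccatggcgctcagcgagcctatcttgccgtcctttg

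GC boxes occurred 4 times in the *Klf4* window (2 of them overlapping by 1 base), 3 times in that of *Klf13*, 2 times in that of *Klf2* and once in that of *Klf6*, and 35.7% of all 32851 RefSeq windows held at least 1. A half-site TGACG was found in the windows of *Klf2*, *Klf4* and *Klf13* and in 20.8% of all windows. The E-box CACGTG was found in those of *Klf4* and *Klf6* and in 7.15% of all. The CCAAT box occurred 4 times in the *Klf6* window and 2 times in that of *Klf13*, against 37.4% of windows with at least 1. *Klf2* was the only one of the 4 with a MEF2 site, at bases -118 to -109 from the start site, a motif found in 3.19% of all windows. None of the 4 windows held the full palindromic cyclic AMP response element (1.79% of all), the AP-1 site TGANTCA (7.81%) or a CArG box, the serum response factor motif (1.63%). The letters CACCC, not in capitals, occurred in the windows of *Klf2* and *Klf13* and in 57.5% of all, and TATAAA in none of the 4 and in 13.6% of all. The 4 windows had GC contents of 74.3%, 63%, 72% and 69.3% in the order printed, against a median of 52.7% over all windows, and matches to GC-rich motifs follow base composition.

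In untreated irises each member had its own distribution over the cell types, and endothelial cells stood first for *Klf2*, *Klf4*, *Klf7*, *Klf10*, *Klf12* and *Klf13*. Since the cell types were defined from these same counts, levels over cell types are a description and were not tested. CPM depend on gene length, because reads from introns were counted too: *Klf12* spans 414.0 kb, of which 1.69% is exonic, and *Klf2* spans 2.62 kb. The genes that differed with dilation below lie, in mm10 with the GENCODE vM21 annotation, at chr4:55527143-55532466 on the minus strand (*Klf4*, ENSMUSG00000003032), chr14:99298691-99315036 on the plus strand (*Klf5*, ENSMUSG00000005148), chr13:5861482-5870394 on the plus strand (*Klf6*, ENSMUSG00000000078), chr15:38291463-38300706 on the minus strand (*Klf10*, ENSMUSG00000037465), chr14:99870632-100284679 on the minus strand (*Klf12*, ENSMUSG00000072294) and chr7:63886351-63938915 on the minus strand (*Klf13*, ENSMUSG00000052040). Per kb of gene span over all nuclei of the untreated libraries, the highest mean levels were those of *Klf6* (5.12 CPM per kb) and *Klf2* (4.55), and the lowest were those of *Klf12* (0.446) and *Klf5* (0.463).

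**Figure D1:**
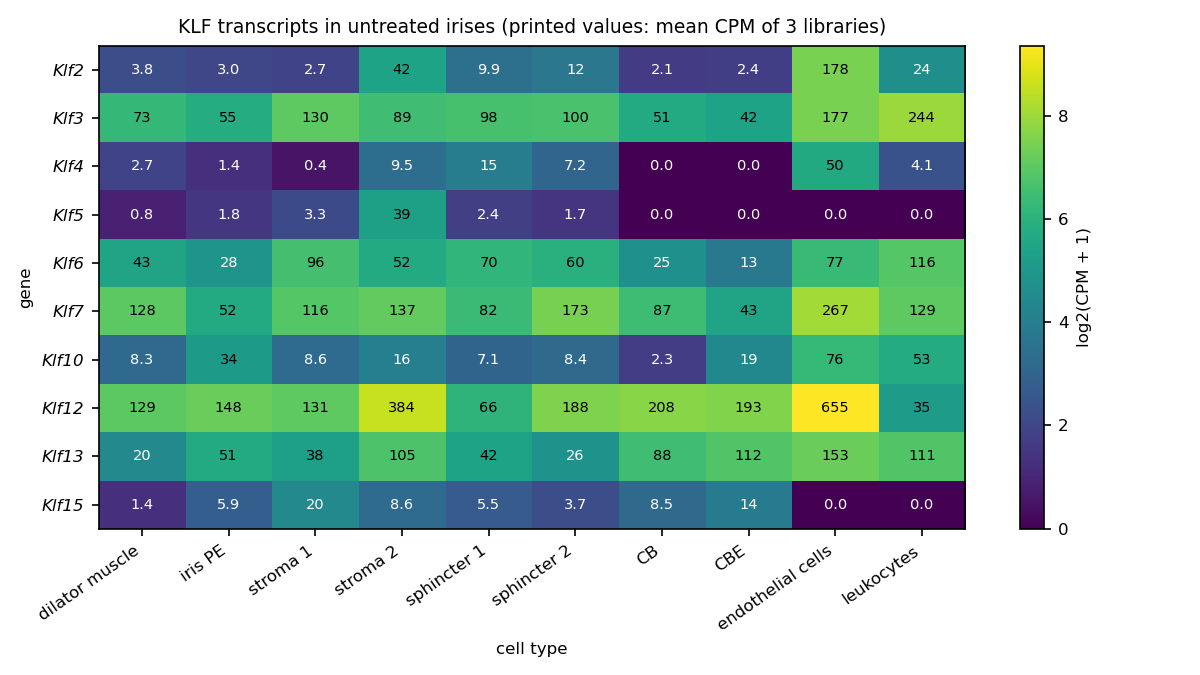
Mean CPM of the 10 KLF genes (rows) in the 10 cell types (columns) of untreated irises, over 3 libraries, with the colour on a log2(CPM + 1) scale. *Klf2* and *Klf4* stand out in endothelial cells and *Klf5* in stroma 2, whereas *Klf3*, *Klf6*, *Klf7*, *Klf12* and *Klf13* were found in every cell type.

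*Klf2* was at 330, 82.3 and 121 CPM in the endothelial cells of the 3 untreated libraries, on 17, 13 and 21 UMIs. The next cell type, stroma 2, had 72.5, 22.5 and 31.7 CPM, so that the libraries did not overlap but the means (178 ± 133 and 42.2 ± 26.6, SD, n = 3) lay within their spread. In muscle *Klf2* was at 3.79 ± 1.75 CPM in dilator muscle, 9.90 ± 10.3 in sphincter 1 and 12.2 ± 6.20 in sphincter 2. *Klf4*, also known as an endothelial factor, was at 77.6, 31.6 and 40.3 CPM in endothelial cells, above every library of sphincter 1 (21.5, 14.4 and 8.12). No UMI of *Klf4* was found in untreated CB or CBE, where 3 UMIs over the group would be 2.61 and 2.32 CPM. *Klf2* and *Klf4* followed each other over the 10 cell types (Pearson r = 0.89 on log2(CPM + 1)), a description of 10 points from the same libraries.

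*Klf5*, a factor of epithelial and smooth muscle proliferation, had the narrowest distribution. Stroma 2 had 32.6, 49.7 and 33.4 CPM and the next cell type, stroma 1, had 1.79, 5.12 and 3.08, a ratio of means of 11.6. Dilator muscle, sixth in the order, had 1.25, 0.563 and 0.633 CPM. No UMI of *Klf5* was found in any of the 387 leukocyte nuclei of the 8 libraries, and none in untreated CB, CBE or endothelial cells, where 3 UMIs over the group would be 2.61, 2.32 and 7.82 CPM. In untreated leukocytes the same floor is 6.58 CPM.

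*Klf3*, a repressor that works through CtBP proteins, was highest in leukocytes (265, 212 and 254 CPM), followed by endothelial cells (194, 165 and 173). It was lowest in CBE (42.2 ± 9.64 CPM). *Klf6*, an early-response member, was at 116 ± 75.2 CPM in leukocytes and 95.6 ± 11.5 in stroma 1, with overlapping libraries, and the first 7 cell types in its order could not be told from their neighbours down to dilator muscle (42.9 ± 7.94). The order of the first 2 turned without untreated replicate 3. *Klf3* and *Klf6* had similar profiles over the 10 cell types (r = 0.93).

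*Klf7*, known from neurons and adipose tissue, ranged from 42.9 ± 16 CPM in CBE to 267 ± 66.6 in endothelial cells, with sphincter 2 next (173 ± 34.3) and dilator muscle at 128 ± 16.8. *Klf12*, a CtBP-dependent repressor, was at 655 ± 79.0 CPM in endothelial cells, 384 ± 42.1 in stroma 2 and 34.9 ± 17.3 in leukocytes. These steps exceeded the spread between libraries from endothelial cells to stroma 2 and from stroma 2 to CB (208 ± 21.1). The antisense gene *4930517O19Rik* lies within *Klf12* and had 6554 UMIs against 21370 of *Klf12*. Whether the counting used strand is not given in the sources used here, and without strand the reads of the 2 genes cannot be told apart.

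*Klf10*, an early gene of transforming growth factor beta signalling, was at 76.4 ± 18.0 CPM in endothelial cells, 53.5 ± 20.6 in leukocytes and 33.5 ± 8.81 in iris PE, and at 8.29 ± 0.93 in dilator muscle. *Klf13*, which is known from T cells and heart, was lowest in dilator muscle (20.4 ± 1.90 CPM) and highest in endothelial cells (153 ± 32.3), but the neighbours in its order overlapped throughout. *Klf15*, a glucocorticoid-responsive metabolic regulator, was at 20.2 ± 4.01 CPM in stroma 1 and 14.0 ± 4.33 in CBE. It had no UMI in untreated endothelial cells or leukocytes (floors of 7.82 and 6.58 CPM), and 1.37 ± 0.44 CPM in dilator muscle.

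Dilated and untreated irises were compared next to ask which members differ with pharmacologic dilation and in which cells. Of 100 pairs of gene and cell type, 66 passed the filter on low counts and 34 did not. Called higher in dilated irises were *Klf4*, *Klf5*, *Klf6* and *Klf13* in dilator muscle and *Klf10* in iris PE, and called lower was *Klf12* in sphincter 2. In dilator muscle this is 4 of 10 members tested, beside 7.2% of all 15395 genes tested called higher, and 0 members lower beside 6.14%. The median log2 fold change of the 10 members there was 1.18 and that of all genes 0.02. In iris PE 1 of 8 members was higher, beside 0.453% of genes, and in sphincter 2 1 of 5 was lower, beside 1.4%. In dilator muscle, *Klf5* also entered the test only through its dilated counts. Because the members were chosen with earlier results of these data known, these shares describe the list and do not test it.

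*Klf5* differed most. Its level in dilator muscle was 1.25, 0.563 and 0.633 CPM in the untreated libraries, 0.581, 0.443 and 0.711 in the constricted and 4.84 and 6.61 in the dilated. Both dilated libraries lay above all 6 others, and the log2 fold change against untreated was 3.18 ± 0.48 (SE; adjusted p = 0.000949). The counts behind it were small, 10 UMIs in all untreated, 7 in all constricted and 82 in all dilated dilator nuclei. It therefore passed the filter on low counts through its dilated libraries, and the call describes these levels without adding support. The gene was also called with no filter. Thus *Klf5* rose in a cell type in which it was barely detected, to a level below that of stroma 2, where it was at 25.1 and 18.7 CPM in the dilated libraries.

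*Klf4* was at 3.74, 2.39 and 2.06 CPM in untreated, 4.45, 0.886 and 3.79 in constricted and 8.89 and 23.0 in dilated dilator muscle. The dilated libraries did not overlap with the others but lay far from each other. The log2 fold change against untreated was 2.85 ± 0.52 (adjusted p = 0.00293), and 1.93 without dilated replicate 2 (adjusted p = 0.0423), which with its value of 3.46 without dilated replicate 1 bounds the range over all alternatives. The share of dilator nuclei with a *Klf4* UMI was 0.69% to 1.49% in untreated and 3.08% to 6.89% in dilated libraries, at similar median depths (3344.5 to 3926 and 3660 to 3800 UMIs per nucleus). With each nucleus thinned to 1000 UMIs and 26 and 3 shallower nuclei left out, these shares were 0.25% to 0.46% and 0.84% to 2.32%. In CBE, where *Klf4* was not found untreated, dilated libraries had 0.72% and 0.84% of nuclei with a UMI, at median depths of 3110 to 3236.5, so that the dilated shares in dilator muscle were above those in CBE of the same libraries.

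*Klf13* gave the smallest adjusted p of the list. Its 3 untreated libraries had 22.4, 20.1 and 18.7 CPM, its constricted libraries 27.3, 23.9 and 27.2, and its dilated libraries 59.1 and 73.1. The dilated libraries stood well apart from the rest, and the log2 fold change was 1.90 ± 0.18 (adjusted p = 4.68e-05). The share of dilator nuclei with a *Klf13* UMI went from between 5.92% and 7.94% to 18.6% and 21.0%. Thinned to 1000 UMIs, the shares were 1.77% to 2.44% and 5.60% and 7.05%.

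*Klf6* was at 34.9, 43.1 and 50.8 CPM in untreated and 64.4 and 94.2 in dilated dilator muscle. The constricted libraries overlapped with both, at 39.7, 32.4 and 68.9. Its log2 fold change against untreated was 1.04 ± 0.30 (adjusted p = 0.0347). The call was lost without untreated replicate 1, 2 or 3 (adjusted p = 0.0904, 0.0995 and 0.0559 at log2 fold changes of 0.92, 1.06 and 1.20) and without dilated replicate 2 (0.297, at 0.66). The calls of *Klf4*, *Klf5* and *Klf13* were kept under all 16 alternatives.

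**Figure D2:**
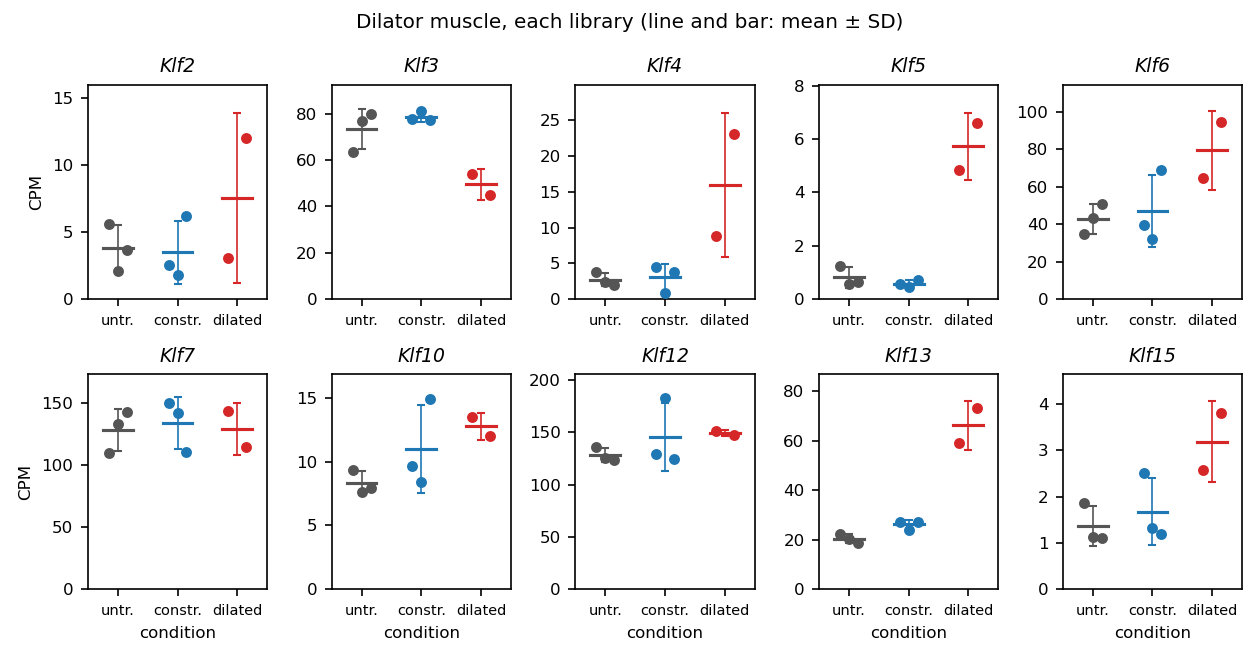
CPM of each KLF gene in dilator muscle (vertical axes, each from 0) by condition, with 1 point per library (3 untreated, 3 constricted, 2 dilated), the mean as a line and the SD as a bar. Both dilated points lie above all other points for *Klf4*, *Klf5*, *Klf13* and *Klf15*, and below them for *Klf3*.

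The other members of the list did not pass in dilator muscle. *Klf10* was at 9.35, 7.60 and 7.91 CPM in untreated and 13.5 and 12.0 in dilated libraries (log2 fold change 0.84 ± 0.27, adjusted p = 0.0598), and *Klf15* at 1.87, 1.13 and 1.11 and at 2.57 and 3.81 (1.49 ± 0.50, adjusted p = 0.0672). Neither overlapped between dilated and untreated libraries, but constricted replicate 3 had the highest *Klf10* of all 8, at 14.9. *Klf2* was split: dilated replicate 1 had 3.06 CPM, within the untreated range of 2.11 to 5.61, and dilated replicate 2 had 12.0. The log2 fold change of *Klf2* was 1.31 ± 0.63 (adjusted p = 0.200), and it was 2.09 without dilated replicate 1, where it passed (adjusted p = 0.0332), and -0.04 without dilated replicate 2.

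*Klf3* was at 63.6, 76.8 and 80.0 CPM in untreated and 54.2 and 44.9 in dilated dilator muscle, the only member with both dilated libraries below all untreated ones, and was not called (log2 fold change -0.40 ± 0.16, adjusted p = 0.118). *Klf7* and *Klf12*, the most counted members there, had log2 fold changes of 0.17 ± 0.17 and 0.41 ± 0.17 (adjusted p = 0.562 and 0.137). Over the 10 members, both dilated libraries were above all untreated ones for 7 and below for 1, beside 14.5% and 33.9% of all genes tested there. Dilator nuclei with a UMI of any of the 10 genes made up 69.0% to 70.1% in untreated, 69.1% to 83.6% in constricted and 79.7% and 80.5% in dilated libraries.

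The libraries fall into 3 series by the library numbers in their labels, which are not said to be batches, and the series that holds replicate 1 of each condition and the series of 4 later libraries each give a comparison of their own. *Klf5* in dilator muscle was 3.88-fold and 11.1-fold higher in dilated than untreated irises in these series, *Klf4* 2.38-fold and 10.4-fold, *Klf13* 2.64-fold and 3.77-fold, and *Klf6* 1.84-fold and 2.01-fold. *Klf2* had ratios of 0.55 and 4.18, in opposite directions. Deviations from the group means correlated within a series (r from 0.13 to 0.60 over genes, for pairs of libraries in different conditions). With 2 dilated libraries, their deviations mirror each other, so part of this sign pattern was fixed in advance. With the series as a block, 14 pairs passed in place of 6, among them *Klf2*, *Klf10* and *Klf15* in dilator muscle (adjusted p = 0.0273, 0.0125 and 0.0450). Over all 15395 genes tested in dilator muscle, calls rose as well, from 2054 to 3138. The other 5 added KLF pairs were *Klf13* and *Klf6* in iris PE (0.0147 and 0.0495), *Klf3* and *Klf15* in stroma 2 (0.0298 and 0.0375) and *Klf6* in sphincter 2 (0.00336).

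Markers of other cells were measured in the same dilator sums. The 4 stroma 2 markers, from the cell type richest in *Klf5*, summed to 26.2 to 38.4 CPM in untreated and 18.2 to 31.8 in dilated dilator muscle, with none at 0 in untreated libraries. The 6 endothelial markers, from the type richest in *Klf2* and *Klf4*, were at 22.9 to 80.4 and 21.0 to 38.4. Neither sum was higher in the dilated libraries. Blood cell markers were higher in sum (1.25 to 3.66 CPM untreated, 8.22 to 8.59 dilated, with 1 of 2 tested called higher), also in iris PE (1.95 to 4.97 and 8.22 to 11.1) and stroma 2 (1.98 to 8.13 and 12.7 to 22.2), and constricted dilator libraries reached 11.6. *Col9a2* and *Bmp4* summed to 123 to 185 CPM in untreated and 74.1 to 74.8 in dilated dilator muscle. The 4 stroma 1 markers were higher there (5043 to 5604 against 7469 to 7958 CPM), and the 5 dilator markers were lower (5062 to 5865 against 2432 to 2645), with 3 of the 5 called lower. The part of these shifts in the KLF values was not tested.

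In iris PE, the pigmented layer beside the dilator, *Klf10* was at 25.9, 43.2 and 31.4 CPM in untreated, 24.3, 43.4 and 28.8 in constricted and 78.0 and 92.1 in dilated libraries. The dilated libraries lay well above all others, and the log2 fold change was 1.33 ± 0.24 (adjusted p = 0.0279). It was 3.01-fold and 2.47-fold higher within the 2 series. The call was lost without untreated replicate 1 (adjusted p = 0.0509, at 1.21) or 3 (0.173, at 1.27) and without dilated replicate 1 (0.0568, at 1.49) or 2 (0.213, at 1.16).

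*Klf13* in iris PE was at 67.7, 45.9 and 40.0 CPM in untreated and 80.6 and 132 in dilated libraries. It did not pass (log2 fold change 1.15 ± 0.24, adjusted p = 0.0567), although it did without untreated replicate 1, constricted replicate 3 or dilated replicate 1 (adjusted p = 0.0320, 0.0414 and 0.0156, at 1.33, 1.16 and 1.52). *Klf4* and *Klf5* did not pass the filter on low counts in iris PE, with 9 and 15 in all untreated and 13 and 14 in all dilated nuclei.

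In sphincter 2, *Klf12* was at 165, 198 and 202 CPM in untreated and 115 and 61.3 in dilated libraries. These did not overlap, and the log2 fold change was -1.07 ± 0.30 (adjusted p = 0.0422). Constricted libraries spanned 114 to 238 CPM and overlapped with both. The call was lost under DESeq2 (adjusted p = 0.112, at -1.06), without untreated replicate 2 or 3 (0.172 and 0.198, at -1.04 and -1.03) and without dilated replicate 2 (0.488, at -0.74), and it rests on 49 UMIs in the dilated nuclei. *Klf6* was at 55.0, 56.2 and 69.7 CPM in untreated and 104 and 143 in dilated sphincter 2 and was not called (log2 fold change 1.06 ± 0.32, adjusted p = 0.0658), but it passed without constricted replicate 1 or 3 or dilated replicate 1 (0.0483, 0.0349 and 0.0473, at 1.06, 1.06 and 1.32).

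Stroma 2, which had the highest *Klf5*, had none called of 10 members tested, beside 1.35% of genes called higher and 0.383% lower. *Klf5* was at 32.6, 49.7 and 33.4 CPM in untreated and 25.1 and 18.7 in dilated libraries there (log2 fold change -0.79 ± 0.28, adjusted p = 0.243). *Klf3* was at 73.7, 98.5 and 94.8 and at 54.4 and 49.6 CPM (-0.76 ± 0.19, adjusted p = 0.0718), and it passed without untreated replicate 1 (0.0328, at -0.87). Every dilated library was below every untreated one for *Klf3*, *Klf5*, *Klf6* and *Klf10*, and above for *Klf15*. The share of all genes separated in this way was not computed for stroma 2. No member was called in stroma 1 (7 tested), sphincter 1 (5), CB (5), CBE (6), endothelial cells (5) or leukocytes (5), beside 1.17%, 1.95%, 0.0665%, 0.0122%, 0% and 1.32% of genes called in either direction.

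**Figure D3:**
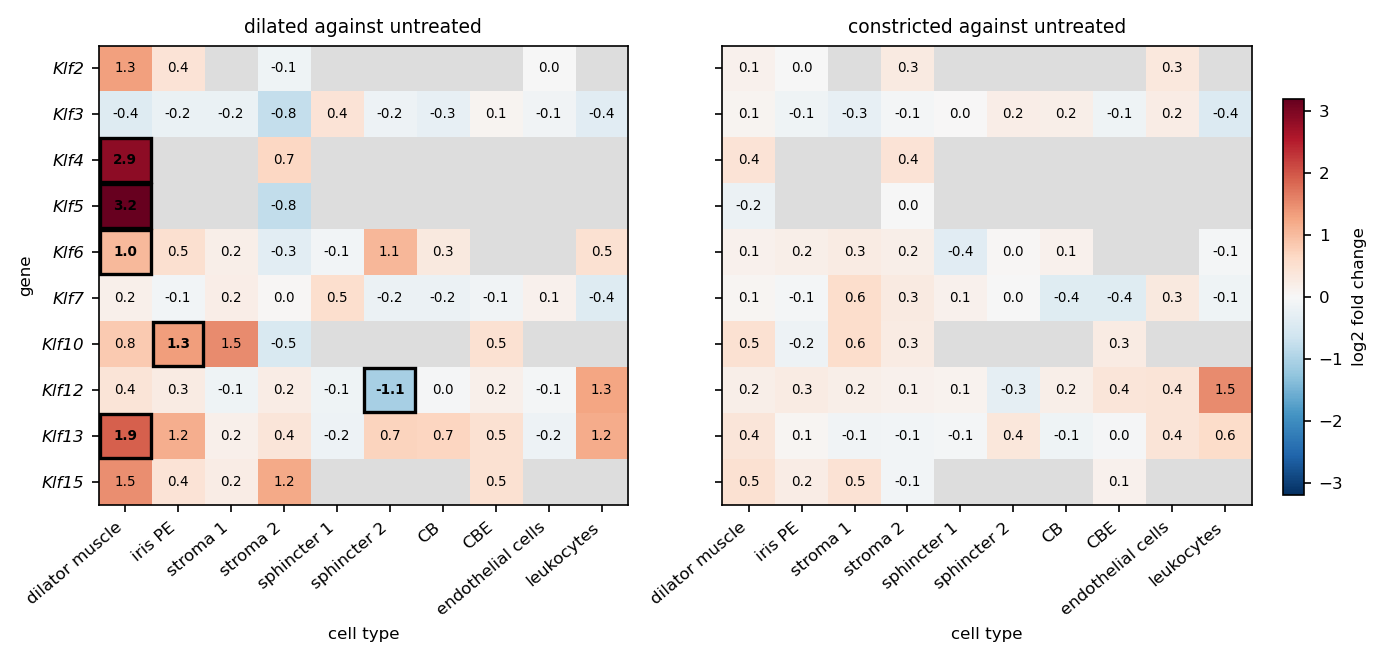
Log2 fold changes of the KLF genes (rows) in each cell type (columns), dilated against untreated on the left and constricted against untreated on the right, with grey for pairs that did not pass the filter on low counts. Black frames mark the 6 called pairs, 4 of them in dilator muscle, all on the left.

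Constriction was compared with the untreated state in the same fits. None of the 66 pairs was called by edgeR, 3 had an unadjusted p under 0.05, and DESeq2 called 0. The background was low as well, with 0.0065% of all genes called in dilator muscle, 0.00708% in iris PE, 0.0156% in stroma 2, 0.0897% in sphincter 2 and 0% in the other 6 cell types. The 3 pairs with an unadjusted p under 0.05 were *Klf13* in dilator muscle (log2 fold change 0.40 ± 0.18), *Klf7* in stroma 1 (0.57 ± 0.16) and *Klf12* in leukocytes (1.52 ± 0.63). These are 3 of 66 pairs, beside 4.09% (dilator muscle) to 10.8% (endothelial cells) of all genes of a cell type under that limit. *Klf7* in stroma 1 was at 170, 163 and 173 CPM in constricted and 131, 119 and 98.6 in untreated libraries, without overlap, and its adjusted p was 0.937. In dilator muscle, *Klf5* had a log2 fold change of -0.19 ± 0.66 and *Klf4* one of 0.43 ± 0.56, with 7 and 41 UMIs in all constricted dilator nuclei, so that the SE are wide.

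Dilated and constricted irises, which differ in drug and in lighting, were compared last. *Klf4* (log2 fold change 2.42 ± 0.50, adjusted p = 0.00758), *Klf5* (3.37 ± 0.51, adjusted p = 0.00117) and *Klf13* (1.51 ± 0.18, adjusted p = 0.000236) were higher in dilated dilator muscle, 3 of 10 members beside 5.59% of genes. Here too, *Klf5* was tested only through its dilated counts. In iris PE *Klf10* was higher (1.49 ± 0.25, adjusted p = 0.0193), 1 of 8 members beside 0.411% of genes. *Klf6* in dilator muscle was not called (0.91 ± 0.30, adjusted p = 0.0715). The call of *Klf4* was lost without dilated replicate 2 (adjusted p = 0.123, at 1.51), and that of *Klf10* without dilated replicate 2 (0.135, at 1.32) or constricted replicate 1 (0.0699, at 1.30). Constricted and untreated irises were each set against the same 2 dilated libraries.

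To ask whether dilation acted unequally on dilator muscle and on other cell types, dilator muscle and each of the others were fitted together with a term for each library. The effect of dilation on *Klf13* was larger in dilator muscle than in iris PE (by 0.70 ± 0.16 on the log2 scale, adjusted p = 0.00496), stroma 1, stroma 2, sphincter 1, CB, CBE and endothelial cells. For *Klf5* it was larger than in stroma 2 by 3.95 ± 0.46. For *Klf6* it was larger than in stroma 2 (1.25 ± 0.20), sphincter 1 (1.06 ± 0.30) and stroma 1 (0.89 ± 0.20), but the difference from sphincter 2 was -0.10 ± 0.29. The effect on *Klf10* did not differ between dilator muscle and iris PE by this test (-0.41 ± 0.26, adjusted p = 0.365), although only the iris PE passed on its own.

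The differences of *Klf6* were lost without dilated replicate 1 (stroma 1, 0.71) and without untreated replicate 3 or dilated replicate 2 (sphincter 1, 1.11 and 0.52), and that of *Klf13* from iris PE without dilated replicate 1 (0.53). Those of *Klf13* from both stromata and sphincter 1, and of *Klf5* from stroma 2 were kept under all 13 alternatives.

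Where a gene had passed the filter on low counts in both cell types alone, 15 of 56 such differences passed, 14 of them with the more positive effect in dilator muscle. By cell type these were 1 of 8 members against iris PE (background 14% of genes), 2 of 7 against stroma 1 (8.1%), 5 of 10 against stroma 2 (9.83%), 3 of 5 against sphincter 1 (10.7%), 1 of 5 against sphincter 2 (3.62%), 1 of 5 against CB (4.99%), 1 of 6 against CBE (6.65%), 1 of 5 against endothelial cells (3.19%) and 0 of 5 against leukocytes (2.52%). The joint fits tested 79 pairs and 18 passed, but 3 of these (*Klf5* against iris PE and stroma 1, *Klf4* against sphincter 1) entered only through their dilator counts and give no support. The 9 fits share the same dilator counts. Without a term for each library, 6 of the 18 passed. *Klf4* in sphincter 1 went the other way from dilator muscle in counts: its levels were 21.5, 14.4 and 8.12 CPM in untreated and 0 and 2.31 in dilated libraries, on 22 and 1 UMIs in all. In sphincter 2 it went the same way as in dilator muscle, from 7.21 ± 4.48 CPM in untreated to 28.3 ± 3.34 in dilated libraries. These levels rest on 9 and 16 UMIs, and *Klf4* did not pass the filter on low counts in sphincter 2 either.

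**Figure D4:**
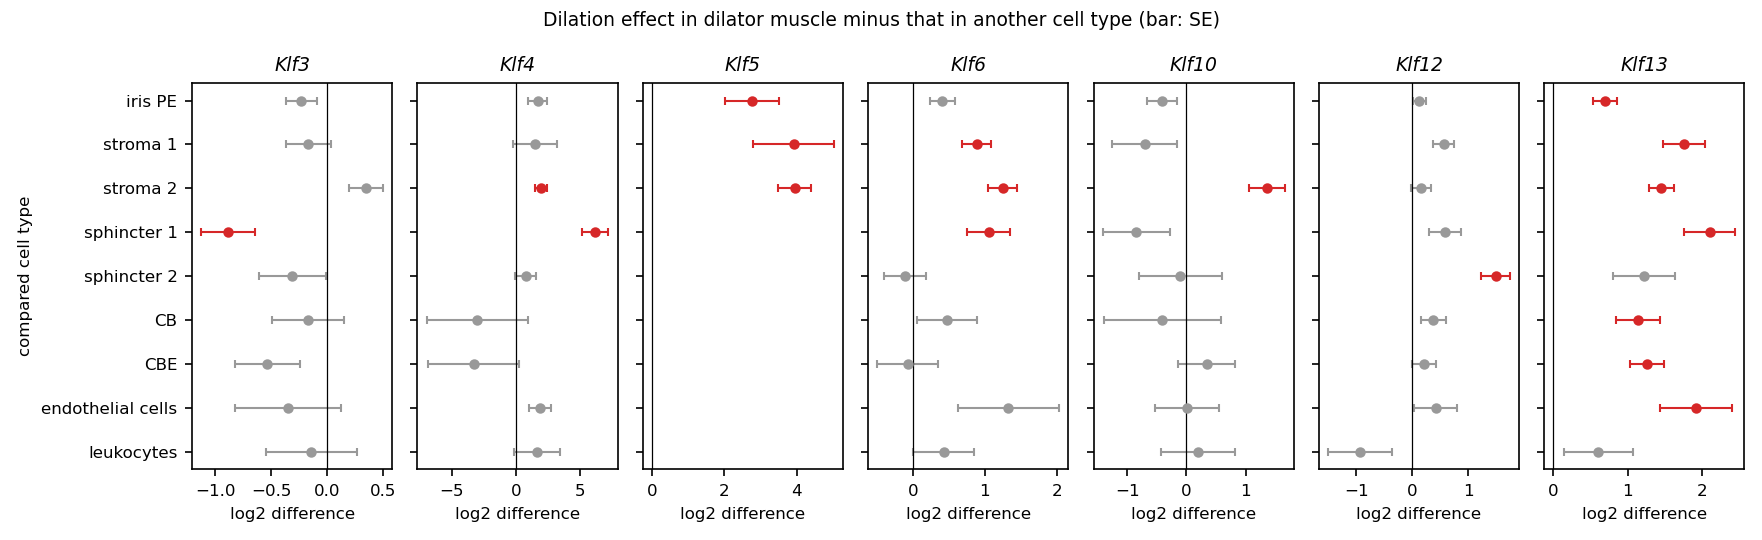
Difference between the log2 effect of dilation in dilator muscle and that in another cell type (horizontal axes), for the 7 KLF genes with at least 1 difference that passed, with SE as bars and red for an adjusted p under 0.05, including the 3 pairs that had too few counts in the other cell type. *Klf13* is red against 7 of the 9 cell types, and every red point lies right of 0 except *Klf3* against sphincter 1.

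Genes around the KLF factors were counted in the same tests, dilated against untreated. Of the other KLF and SP family genes, 9 could be tested in dilator muscle and none was called. The largest changes in size were those of *Klf16* (log2 fold change 1.32, adjusted p = 0.0547), *Sp6* (-1.18, 0.107), *Klf9* (0.55, 0.140) and *Klf11* (-0.54, 0.419). In sphincter 2, *Klf9* was the 1 of 5 called (1.27, adjusted p = 0.0396, beside 1.46% of genes), and none was called in iris PE (9 tested), stroma 1 (6), stroma 2 (11) or sphincter 1 (4). The 11 cofactor genes (corepressors such as *Ctbp1*, *Ctbp2* and *Sin3a*, acetyltransferases such as *Kat2b*, and ubiquitin ligases) had none called in dilator muscle or in these 5 cell types, and 1 of 5 in leukocytes, *Wwp1*, was lower (-1.62, adjusted p = 0.00853, beside 1.32% of genes called there; named after its value was seen). Among them *Ctbp1* had a log2 fold change of 0.64 (adjusted p = 0.0546), *Ctbp2* 0.46 (0.413), *Kat2b* -0.39 (0.115) and *Hdac1* -0.34 (0.246).

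Of 7 genes of the ERK5 and MEF2 pathway, which lies upstream of *Klf2* and *Klf4* in endothelium, 1 was higher in dilator muscle, beside 7.2% of all genes, the transcription factor gene *Mef2d* (log2 fold change 0.79, adjusted p = 0.00897). *Mef2c* (0.26), the kinase gene *Mapk7* (-0.18) and *Map2k5* (0.11) did not pass (adjusted p = 0.728, 0.730 and 0.675). In stroma 2, *Mef2d* (0.98) and *Mef2c* (1.49) were higher, 2 of 7 beside 1.35% of genes (adjusted p = 0.0300 and 0.00586), and none passed in iris PE, stroma 1 or either sphincter class. Of the serum response factor and early-response genes, 8 of 10 tested were higher in dilator muscle, beside the same 7.2%, with *Egr1* at a log2 fold change of 5.65, *Btg2* at 5.50, *Fos* at 5.47 and *Atf3* at 4.80 (adjusted p = 9.83e-05, 0.000229, 0.00249 and 0.00201). The study had already reported *Egr1*, *Btg2* and *Junb*, which are in this list, as induced in dilated dilator muscle of these libraries. The share and median of this list are therefore a description. In this list 4 of 10 were higher in iris PE (0.453% of all genes), 2 of 9 in stroma 2 (1.35%), 2 of 3 in sphincter 2 (1.46%), 1 of 3 in sphincter 1 (0.633%) and 0 of 2 in stroma 1 (0.786%). In CB 2 of 4 were higher, *Egr1* (4.92) and *Junb* (2.67), named after their values were seen, beside 0.0665% of genes called there. The largest of the KLF changes, that of *Klf5* at 3.18, was below the median of this list in dilator muscle (4.60).

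Among 6 smooth muscle genes that KLF4 and KLF5 are known to regulate, *Tagln*, which codes for an actin-binding protein, was higher in dilator muscle (log2 fold change 1.83, adjusted p = 0.00384) and *Myocd*, a coactivator of contractile genes, was lower (-0.99, adjusted p = 0.0330), 1 of 6 in each direction beside 7.2% and 6.14% of genes. *Cnn1* (1.06, adjusted p = 0.203) and *Myh11* (-0.50, 0.0654) did not pass. Of the same list *Tagln* was higher in sphincter 1 (1.18) and *Cnn1* in sphincter 2 (1.19), and none passed in iris PE, stroma 1 or stroma 2. The list medians were 1.22 in stroma 2, -0.24 in iris PE and -0.31 in stroma 1, against 0.26 in dilator muscle. Of the endothelial genes that KLF2 and KLF4 induce, *Nos3* (-1.68, adjusted p = 0.103) and *Thbd* (0.19, 0.525) did not pass in dilator muscle, *Thbd* was higher in stroma 2 (1.27) and sphincter 1 (1.88), and neither could be tested in stroma 1 or sphincter 2. Of 5 genes known from glucocorticoid responses, as *Klf15* is, *Per1* (2.67), *Fkbp5* (2.62) and *Zbtb16* (1.85) were higher in dilator muscle (adjusted p = 0.00735, 0.00603 and 0.0129), 3 of 5 beside 7.2% of genes, and *Sgk1* was not called (0.23, 0.638). None of the 5 passed in iris PE, stroma 1 or stroma 2, and 1 passed in each sphincter class, *Fkbp5* in sphincter 1 (2.54) and *Zbtb16* in sphincter 2 (1.64).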

How the data were processed

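Per the labels and the methods of the study, nuclei were sequenced on the 10x Genomics platform, aligned with Cell Ranger 3.1.0 to an mm10 index that counts exons and introns, and analysed in Seurat. Nuclei with over 1% mitochondrial transcripts, or with under 500 or over 6000 transcripts in the study's count, were removed. That count is not the UMI count used here, since the study's mean per nucleus lay below the median UMIs per nucleus of every library. The authors deposited raw UMI counts per gene and nucleus with their cell types. The UMIs summed over genes equalled the deposited total for 31650 of the 34357 nuclei, and the reason for the mismatch in the rest was not tested. The authors also deposited the percent of mitochondrial UMIs per nucleus, read here only as a median per library, and cell cycle and size-factor score columns per nucleus, not used here. Each library pooled 5 or 6 irises, in 5 processing batches and 2 sequencing runs, and the sources used here do not say which library was in which, so p-values measure the spread between pools.

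For each cell type, the UMIs of a library were added up and tested with edgeR 4.0.16 (R 4.3.3; TMM, filterByExpr, quasi-likelihood, two-sided, all 8 libraries in 1 fit per cell type), with DESeq2 1.42.0 as an alternative. The study's test over nuclei was replaced because nuclei of a library are not replicates. The test was tried on simulated data with known changes. CPM are per 1000000 UMIs. Correlations used log2(CPM + 1). The members and the gene lists were chosen with earlier results of these data known. From each list, up to 4 genes with the largest change in dilator muscle are named. 1 marker is not reported here. Scrublet called 359 doublets (1.04%), which were kept and left out in an alternative. Alternatives were another scaling, no filter, fewer conditions, each library left out and replicate or series blocks. Floors cover counting error only. The SE is the size of the log2 fold change divided by the square root of the quasi-likelihood F statistic, and so includes spread between libraries. Promoter windows came from RefSeq, with 8 of the 10 genes matched.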

Additional observations from a re-analysis of the deposited data

Results flagged for a closer look

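The effect of dilation, as the log2 change from untreated to dilated irises, differed between dilator muscle and another cell type for 18 pairs of KLF gene and cell type (edgeR interaction test, adjusted p under 0.05), of which 15 had passed the filter on low counts in both cell types alone. Values are the effect in dilator muscle minus the other effect. For *Klf13* the difference was 2.10 from sphincter 1, 1.92 from endothelial cells, 1.76 from stroma 1, 1.45 from stroma 2, 1.26 from CBE, 1.14 from CB and 0.70 from iris PE. It was lost from endothelial cells without untreated replicate 2 (1.73), untreated replicate 3 (2.05) or dilated replicate 2 (1.52), from CB without untreated replicate 1 (0.87), untreated replicate 2 (1.11) or dilated replicate 1 (0.62), and from iris PE without dilated replicate 1 (0.53).

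For *Klf5* the difference was 3.95 from stroma 2, 3.92 from stroma 1 and 2.77 from iris PE. The value for stroma 1 rests on 13 untreated and 3 dilated UMIs there and was lost without untreated replicate 2 (3.29) or dilated replicate 1 (2.90). That for iris PE rests on 15 and 14 UMIs and was lost without untreated replicate 3 (2.73) or dilated replicate 2 (2.30). Neither had passed the filter outside dilator muscle, so that both values are given as a description. For *Klf4* it was 6.17 from sphincter 1, where 22 untreated UMIs stood against 1 dilated UMI, a pair that had not passed the filter there and whose fitted size depends on the prior count, and 1.92 from stroma 2, lost without untreated replicate 2 (1.96), untreated replicate 3 (2.04) or dilated replicate 2 (1.52).

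For *Klf6* the difference was 1.25 from stroma 2, 1.06 from sphincter 1 and 0.89 from stroma 1, and the last was lost without dilated replicate 1 (0.71). That from sphincter 1 was lost without untreated replicate 3 (1.11) or dilated replicate 2 (0.52). For *Klf10* it was 1.36 from stroma 2, lost without untreated replicate 2 (1.17), untreated replicate 3 (1.37) or dilated replicate 1 (1.34). For *Klf12* it was 1.49 from sphincter 2. For *Klf3* it was -0.89 from sphincter 1, the only one with the lower effect in dilator muscle, and was lost without untreated replicate 2 (-0.84) or dilated replicate 1 (-0.68). Without a term for each library, those kept were *Klf13* from endothelial cells, both stromata and sphincter 1, *Klf5* from stroma 2 and *Klf4* from sphincter 1. All others were lost there, among them *Klf12* from sphincter 2 (1.46), *Klf13* from CBE (1.39) and *Klf6* from stroma 2 (1.37).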

How the results depend on the processing

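Of 6 KLF differences between dilated and untreated irises, 5 were shared with DESeq2, which called 6. The number was 10 with no filter on low counts and 14 with the library series as a block, and from 3 (without untreated replicate 3 or dilated replicate 2) to 9 with 1 library left out. Between dilated and constricted irises it was 4, 7 with no filter, 6 with DESeq2, and from 2 (without dilated replicate 2) to 7 (without dilated replicate 1) with 1 library left out. Between constricted and untreated irises 0 were called under every alternative run. The 18 differences in effect between cell types became 6 without a term for each library, and 12 to 18 with 1 library left out. With 1 dilated library left, it is assumed to vary like the other conditions. Correlations of deviations were from -0.010 to 0.602 for libraries with the same replicate number and 0.13 to 0.60 for those of the same series. Same-number pairs outside a series both held constricted replicate 2 (0.006 and -0.010), so the 2 labels can hardly be told apart. Deviations of the 2 dilated libraries mirror each other by construction. With the replicate block the calls numbered 9, 0 and 6 in place of 6, 0 and 4. Over all genes of dilator muscle, dilated against untreated, calls went from 2054 to 2619 with this block and to 3138 with the series block. In levels, the log2 ratio of leukocytes over stroma 1 for *Klf6*, 0.28, was from -0.11 (without untreated replicate 3) to 0.63 (without untreated replicate 1). The cause of these shifts was not tested. Few UMIs limit *Klf4*, *Klf5* and *Klf15*, with 36, 10 and 18 in untreated dilator muscle, and few nuclei limit the tests in endothelial cells (273) and leukocytes (387).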

Other observations

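The genes whose untreated levels over the 10 cell types were most like those of a member (Pearson r of log2(CPM + 1), over 14780 genes, a description of 10 points from the same libraries) were *Prdx4* for *Klf2* (0.96), *Ube2d1* for *Klf3* (0.98), *Tmem63a* for *Klf4* (0.97), *Adgrl3* for *Klf5* (0.95), *Ccdc82* for *Klf6* (0.95), *Arhgap27* for *Klf7* (0.90), *Il6st* for *Klf10* (0.94), *Tax1bp1* for *Klf12* (0.96), *Spred2* for *Klf13* (0.93) and *A430033K04Rik* for *Klf15* (0.95). Among the members themselves, the lowest correlation was that of *Klf2* and *Klf15* (-0.65).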
